A study of Homo sapiens with 20 samples.

Results

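The binding of cohesin and CTCF was described at 10 genes that sit downstream of ERK, the terminal kinase of the MAPK cascade: DUSP6, DUSP4, SPRY2, SPRY4, SPRED1, SPRED2, ETV4, ETV5, PHLDA1 and EGR1. They are 10 of the 20136 protein-coding genes of the annotation. Every peak that overlapped a gene or the 10 kb on either side of it was taken, which gave 1407 of the 1600648 peaks of 16 ChIP-seq peak lists. All libraries came from M14, an established human melanoma cell line that carries a doxycycline-inducible shRNA against STAG2. The WT cells held the same shRNA and received no doxycycline, and the STAG2-KD cells were given doxycycline, for 5 d in replicate 1 (the labels of replicate 2 give no treatment). For each of the 4 targets (SMC1A, CTCF and both STAG proteins) there were 2 WT and 2 STAG2-KD libraries, and the labels give the 2 replicates separate chromatin preparations, with fragments sized on beads for replicate 1 and on a gel for replicate 2. The results rest on a single cell line, and the labels do not say whether the replicates were separate cultures, so the spread between them may be technical. Peak lists hold no expression, so neither the melanoma identity of the cells nor the level of STAG2 protein could be checked. Over the whole lists, STAG2 peaks were fewer in STAG2-KD in both replicates, with 79115 and 58521 peaks in replicate 1 and 119021 and 106203 in replicate 2.

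SMC1A is a subunit of the ring of cohesin, and STAG1 or STAG2 is bound to each ring as the alternative accessory subunit. CTCF binds DNA by sequence and commonly holds cohesin in place. ERK activity switches on genes whose products act back on the same pathway, and in melanoma, in which the pathway is often driven by an oncogene, these genes are used as a readout of its output. DUSP6 and DUSP4 are phosphatases that inactivate MAP kinases. SPRY2 and SPRY4 (Sprouty proteins) and SPRED1 and SPRED2 restrain the signal upstream, between receptor and RAF. ETV4 and ETV5 are ETS transcription factors, EGR1 is a zinc-finger factor of the immediate early response, and PHLDA1 is a pleckstrin homology-like protein induced by growth factors.

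The 10 windows span 596.2 kb, or 0.019% of chromosomes 1 to 22, X and Y. They also hold DHX8 next to ETV4, DGKG next to ETV5 and NAP1L1 next to PHLDA1, and peaks there cannot be assigned to either gene. The annotated start of ETV4 lies at chr17:41656988, and the canonical transcript begins inside the gene at chr17:41623708. In SPRY4, SPRED2 and ETV5 the canonical start also differs, by a shorter distance. The canonical starts were taken up after the annotation was seen. Distances are from the canonical start, negative upstream. A peak is described by its percentile, its rank by −log10 p among all peaks of its own list, in which 100 is the strongest. The lists differ in length, and a peak of the same strength takes a higher percentile in a longer list. The STAG1 lists held 63535, 85621, 98453 and 104663 peaks in WT and STAG2-KD of replicate 1 and then of replicate 2, so STAG1 was longer in STAG2-KD and STAG2 shorter. Fold is the enrichment over input at the summit. Depth, solved from the fold and p of the peaks for the smaller of the ChIP and input libraries, was between 20.2 and 40.7 M reads for replicate 1, while replicate 2 had 37.4 to 65.6 M.

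The reference sequence (hg19, plus strand) is printed for the sites on which the results turn, as 151 bases centred on the summit of WT replicate 1 in the CTCF list. The first 3 are sites at which CTCF ranked high and matched a core motif, in capitals, which was spelled CC, any 3 bases, AG, any 2 bases, GGC. The DUSP6 site is its strongest CTCF site, the SPRED2 site had calls in the comparison of STAG2-KD with WT, and the distal EGR1 site gained SMC1A in both replicates.
SPRY2 upstream, chr13:80917086-80917236: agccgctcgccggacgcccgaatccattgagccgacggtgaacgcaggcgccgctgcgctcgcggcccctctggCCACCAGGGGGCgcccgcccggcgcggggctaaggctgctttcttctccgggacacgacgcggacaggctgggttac
EGR1 upstream, chr5:137799891-137800041: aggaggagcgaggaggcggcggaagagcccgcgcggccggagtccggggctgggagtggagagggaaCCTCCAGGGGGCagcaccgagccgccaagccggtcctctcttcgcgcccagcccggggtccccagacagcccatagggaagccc
ETV4 intron, chr17:41654114-41654264: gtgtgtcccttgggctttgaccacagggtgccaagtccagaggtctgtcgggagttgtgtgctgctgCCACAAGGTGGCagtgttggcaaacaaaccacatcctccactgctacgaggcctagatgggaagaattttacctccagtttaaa
DUSP6 upstream, chr12:89749198-89749348: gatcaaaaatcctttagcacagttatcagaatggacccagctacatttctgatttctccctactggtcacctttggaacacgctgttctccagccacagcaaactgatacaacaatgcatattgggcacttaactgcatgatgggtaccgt
SPRED2 upstream, chr2:65662935-65663085: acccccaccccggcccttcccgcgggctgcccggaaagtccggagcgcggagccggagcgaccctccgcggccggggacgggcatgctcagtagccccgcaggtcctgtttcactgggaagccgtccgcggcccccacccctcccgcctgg
EGR1 distal, chr5:137793648-137793798: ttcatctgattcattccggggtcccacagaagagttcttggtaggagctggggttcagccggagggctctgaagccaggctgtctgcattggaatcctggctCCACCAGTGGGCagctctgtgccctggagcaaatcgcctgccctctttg
Searched on both strands, the core motif was found at 4 of the 10 strongest CTCF sites (DUSP4, SPRY2, ETV4 and EGR1, with DUSP4 not printed) and not at the other 6. Among all CTCF peaks of WT replicate 1, 26.3% held it in a window of the same length, against 1.68% of windows moved by 5 kb. At the 10 genes 10 of 48 CTCF peaks held it (20.8%), and in replicate 2 it was 11 of 68 (16.2%) beside 19.7% of all peaks. At EGR1 the distal site also carried the motif, 27 bases to the right of the summit.

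Which of the 10 genes carried dense SMC1A was examined first. SMC1A peaks were crowded at DUSP4, SPRY4, SPRY2 and PHLDA1, less so at ETV4 and SPRED2, while the number per kb at SPRED1 was near that of the median gene. The 10 genes held 129, 135, 143 and 139 SMC1A peaks in WT replicate 1, STAG2-KD replicate 1, WT replicate 2 and STAG2-KD replicate 2, the order used for all lists of 4 values. By peaks per kb, the mean percentile among all protein-coding genes was 99.8 ± 0.12 (SD, n = 4 lists) for SPRY4, 99.7 ± 0.31 for DUSP4, 98.4 ± 1.80 for PHLDA1 and 98.0 ± 3.06 for SPRY2. These 4 genes lie so close together that their order is within the spread of the lists. ETV4 followed at 94.4 ± 2.36, DUSP6 at 90.9 ± 11.0, SPRED2 at 81.9 ± 1.97, ETV5 at 81.7 ± 5.38, EGR1 at 75.5 ± 18.0 and SPRED1 at 51.5 ± 2.05. In WT replicate 1 PHLDA1 was the densest of all 20136 genes.

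**Figure D1:**
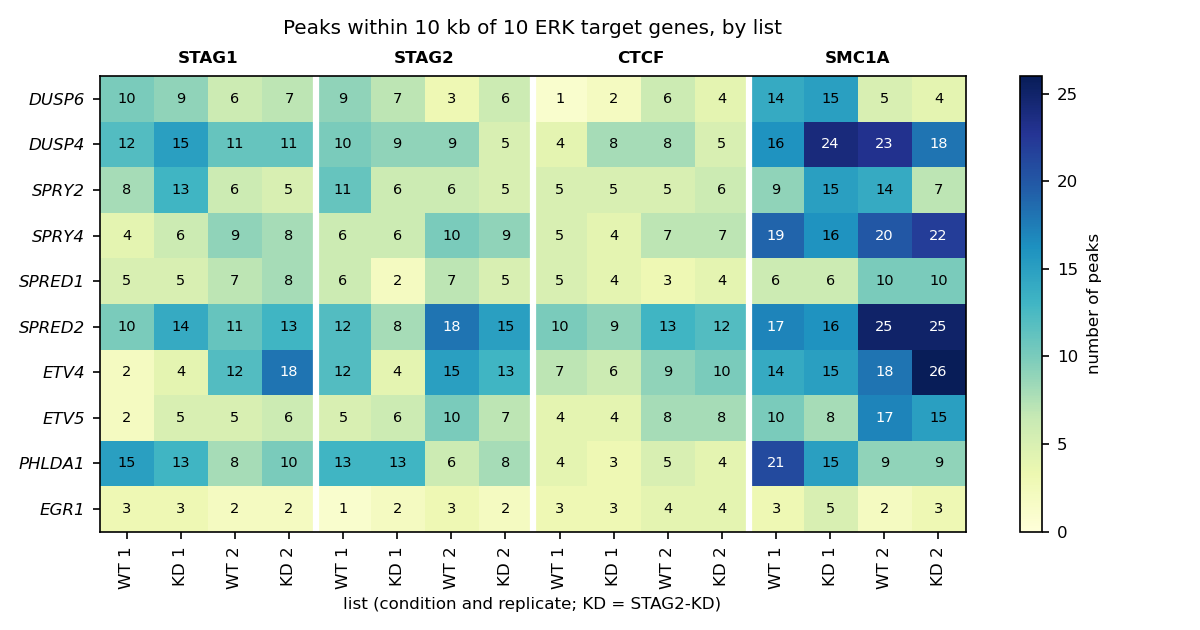
Number of peaks within 10 kb of each gene (rows) in each of the 16 lists (columns, WT and STAG2-KD of replicates 1 and 2 for 4 antibodies), with darker cells for more peaks. SMC1A has the most peaks at the majority of genes and EGR1 the fewest, with 2 to 5 SMC1A peaks per list.

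A stretch of 5 or more SMC1A peaks within 10 kb was found at 8, 9, 8 and 8 of the 10 genes in the 4 lists. Among all protein-coding genes the share was 10.1%, 11.4%, 22.8% and 23.3%. In all 4 lists it was present at 6 of 10 genes (DUSP4, SPRY2, SPRY4, SPRED2, ETV4 and PHLDA1), against 4.40% of all genes (885 of 20136). The largest number within 10 kb at DUSP4 was 13, 13, 15 and 11 peaks, and at SPRY4 it was 12, 10, 12 and 12. At SPRY2 it was 7, 12, 11 and 5, which is just at the limit in STAG2-KD replicate 2. SPRED2 had 5, 5, 5 and 6, ETV4 5, 5, 6 and 9, and PHLDA1 11, 8, 6 and 5. These genes were thus also just at the limit in some lists. A long window has more places for such a stretch, and that of SPRED2 spans 141.8 kb. SPRED1, a long gene, had 3, 5, 8 and 5 and reached the limit in 3 of the 4 lists.

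The replicates disagreed at several genes. EGR1 had the widest spread of density percentile, with 85.6 and 94.1 in replicate 1 and 53.6 and 68.6 in replicate 2. DUSP6 differed as well. It had 14 and 15 SMC1A peaks in replicate 1 and 5 and 4 in replicate 2. The covered length went the other way, with 5.75 and 7.10 kb in replicate 1 and 11.4 and 11.6 kb in replicate 2. The peaks of replicate 1 were narrow and separate, and those of replicate 2 were wide and joined. PHLDA1 showed the same split, with 21, 15, 9 and 9 SMC1A peaks over 13.4, 15.7, 20.8 and 21.9 kb. By the share of the window covered by SMC1A peaks, a measure added after the data were seen, DUSP6 stood at percentiles 99.8, 99.9, 99.8 and 99.8, so its place near the top did not depend on how its peaks were split. On the same measure PHLDA1 was first of all 20136 genes in each of the 4 lists, with 50.8%, 59.5%, 78.8% and 83.1% of its window covered. SPRY2 was covered to 28.3%, 32.9%, 53.9% and 56.4%, and DUSP4 to 19.5%, 26.4%, 49.3% and 57.2%. The median gene had 1.75%, 2.00%, 4.73% and 5.13% of its window covered. SPRED1, with 3.25%, 2.50%, 5.39% and 5.80%, was near that level.

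Next, it was examined whether these SMC1A peaks coincided with CTCF. Most did not. A CTCF peak of the same condition and replicate overlapped 35 of 129 WT SMC1A peaks in replicate 1 (27.1%) and 42 of 143 in replicate 2 (29.4%), where the share over all SMC1A peaks was 65.5% and 54.5%. In STAG2-KD the counts were 36 of 135 (26.7%) and 35 of 139 (25.2%), where the share over all peaks was 64.0% and 54.1%. The share at the 10 genes was thus below that of the whole list in each of 4 lists, with a mean of 28.3% ± 1.58 in WT and 25.9% ± 1.05 in STAG2-KD (SD, n = 2).

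**Figure D2:**
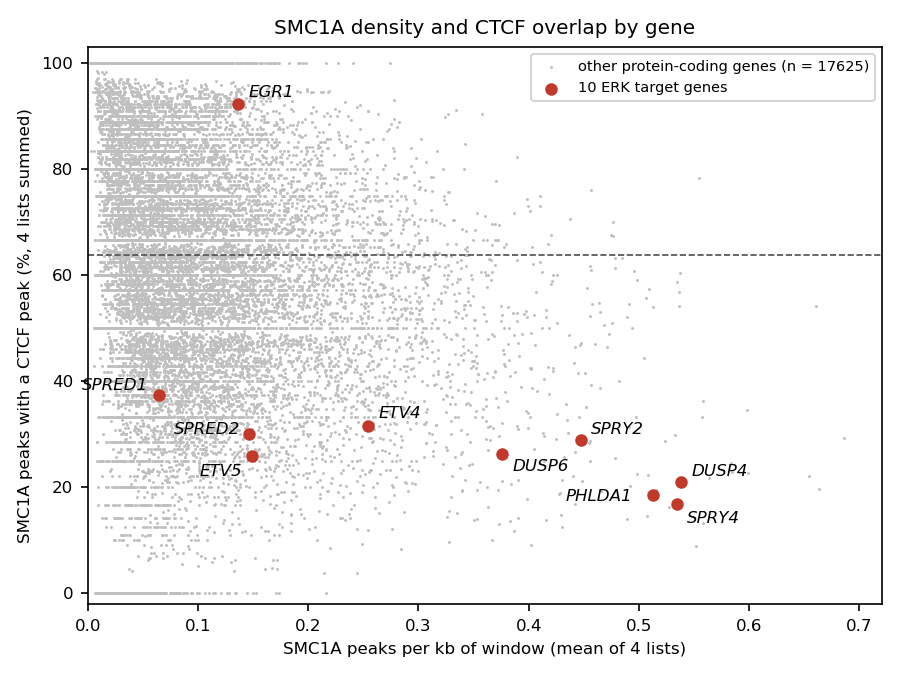
SMC1A peaks per kb of the gene and 10 kb around it (x axis, mean of 4 lists) and the percentage of those peaks that overlap a CTCF peak (y axis, summed over 4 lists) for protein-coding genes with 4 or more SMC1A peaks in all; the dashed line is the median of the other genes. EGR1 lies at 92.3%, and the other 9 genes lie between 16.9% and 37.5%, below the line.

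EGR1 was the exception, with CTCF at 12 of its 13 SMC1A peaks over the 4 lists (92.3%). The lowest shares were at SPRY4, with 13 of 77 (16.9%), at PHLDA1, with 10 of 54 (18.5%), and at DUSP4, with 17 of 81 (21.0%). The other 6 genes lay between 26.0% at ETV5 and 37.5% at SPRED1. The median over the 17635 genes with 4 or more SMC1A peaks was 63.9%. Genes with dense stretches had less CTCF overlap in general, since the median over the 885 genes that were dense in all 4 lists was 45.1%. The 6 dense genes described here had a median of 24.9% (16.9% to 31.5%). Density and CTCF overlap share the SMC1A peak count, and gene windows are not independent replicates, so these medians carry no test.

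SMC1A peaks without CTCF were weak. At the 10 genes their median percentile was 26.0, 24.7, 36.2 and 33.4, against 63.9, 63.2, 74.1 and 76.3 for those with CTCF. All SMC1A peaks of the lists differed in the same way, with medians of 24.1, 24.7, 30.9 and 30 without CTCF and 67.0, 67.7, 71.5 and 71.8 with it. Among SMC1A peaks above the median of their list, an alternative added after the data were seen, 56.8% ± 11.6 of WT peaks had CTCF, beside 86.0% of all such peaks. By covered length 59.8% ± 7.52 of WT SMC1A lay in peaks with CTCF, beside 76.2% over the genome. The difference from the whole list was smaller by length than by peak number, and kept its direction.

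The partner subunits showed the same sites from another side. In WT, 80 of 129 (62.0%) and 69 of 143 (48.3%) SMC1A peaks at the 10 genes overlapped a STAG2 peak, and in STAG2-KD 49 of 135 (36.3%) and 55 of 139 (39.6%) did. For STAG1 the counts were 49 of 129 (38.0%) and 59 of 143 (41.3%) in WT and 75 of 135 (55.6%) and 58 of 139 (41.7%) in STAG2-KD. In replicate 1 SMC1A at these genes was therefore accompanied by a STAG2 peak more often in WT and by a STAG1 peak more often in STAG2-KD. These shares also hold the change in list length, since the STAG1 list was longer and the STAG2 list shorter in STAG2-KD. In replicate 2 the STAG1 shares were within the spread of the replicates. Over all SMC1A peaks the STAG2 share was 75% and 67.0% in WT and 56.6% and 61.3% in STAG2-KD, and the STAG1 share was 62.4% and 56.2% in WT and 70.9% and 57.2% in STAG2-KD.

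Merging the peaks of all lists gave 147 sites at the 10 genes. A peak in all 16 lists was seen at 16 sites, and 59 sites had a peak in 1 list. Merging joined neighbouring peaks, so some of the sites in all lists were long. They reached 20246 bp at PHLDA1, 13387 bp at SPRY2, 11595 bp at DUSP6 and 9598 bp at DUSP4. Peaks of different antibodies within such a site need not overlap each other. SMC1A was present in all 4 of its lists at 37 sites, of which 18 had CTCF in all 4 CTCF lists (48.6%) and 14 had CTCF in none (37.8%). Over the genome 55125 merged sites had SMC1A in all 4 lists, of which 81.1% had CTCF in all 4 and 10.6% in none. The 14 sites without CTCF lay at SPRED2 (4), SPRY4 (3), ETV4 (3), PHLDA1 (2), SPRY2 (1) and ETV5 (1). The long sites of DUSP6 and DUSP4 also held SMC1A peaks of WT replicate 1 that overlapped no CTCF peak of any list. The strongest of these were at percentiles 65.3 and 59.9. CTCF was present in all 4 lists at 26 sites, and 2 of these had no SMC1A peak in any list (7.69%, with 9.65% over the genome). The AP-1 motif TGANTCA, searched on both strands around the summits of SMC1A peaks without CTCF, was found at 5 of 94 in WT replicate 1 (5.32%) and 6 of 101 in WT replicate 2 (5.94%), beside 9.03% and 8.95% of all such peaks. In windows moved by 5 kb from all such peaks it was found at 4.32% and 4.57%, near the shares at the 10 genes.

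The genes were then examined by role. At the start of DUSP6 (chr12:89746278), the phosphatase most specific for ERK, SMC1A was at percentiles 73.2, 71.0, 85.1 and 85.6 within 1 kb. STAG2 was at 63.3, 37.5, 78.8 and 75.5, lower in STAG2-KD in both replicates, and STAG1 was at 19.7, 48.7, 52.3 and 62.4, higher in both. No CTCF peak lay within 1 kb of the DUSP6 start in replicate 1. In replicate 2 a CTCF peak inside the gene was at 24.4 in WT and 23.9 in STAG2-KD. Another STAG2-KD peak, at 33.0, reached into the 1 kb from upstream. Its WT partner, at 39.1, ended just outside. The strongest CTCF site of DUSP6 lay 2.94 kb upstream (chr12:89748781-89749653), with percentiles of 57.0, 51.8, 66.3 and 60.8 and folds of 18.0, 14.3, 14 and 10.0. Both values were lower in STAG2-KD in both replicates. A STAG2 peak at percentile 58.6 overlapped that site in WT replicate 1 and none did in STAG2-KD replicate 1. In replicate 2 the WT peak at 78.8 was a wide one that also spanned the start, while in STAG2-KD a separate STAG2 peak at 47.5 lay on the site, so these 2 percentiles do not describe the same interval.

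DUSP4, a phosphatase of the nucleus, showed the same order at its start. STAG2 was at 66.3, 55.6, 81.1 and 79.7 and STAG1 at 46.9, 65.3, 70.7 and 76.4. CTCF at this start was at 59.1, 54.7, 67.2 and 61.9, and SMC1A at 72.8, 76.6, 87.3 and 88.5. Its strongest CTCF site lay in an intron, 10.1 kb from the start, at percentiles 90.1, 92.7, 93.2 and 90.1.

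**Figure D3:**
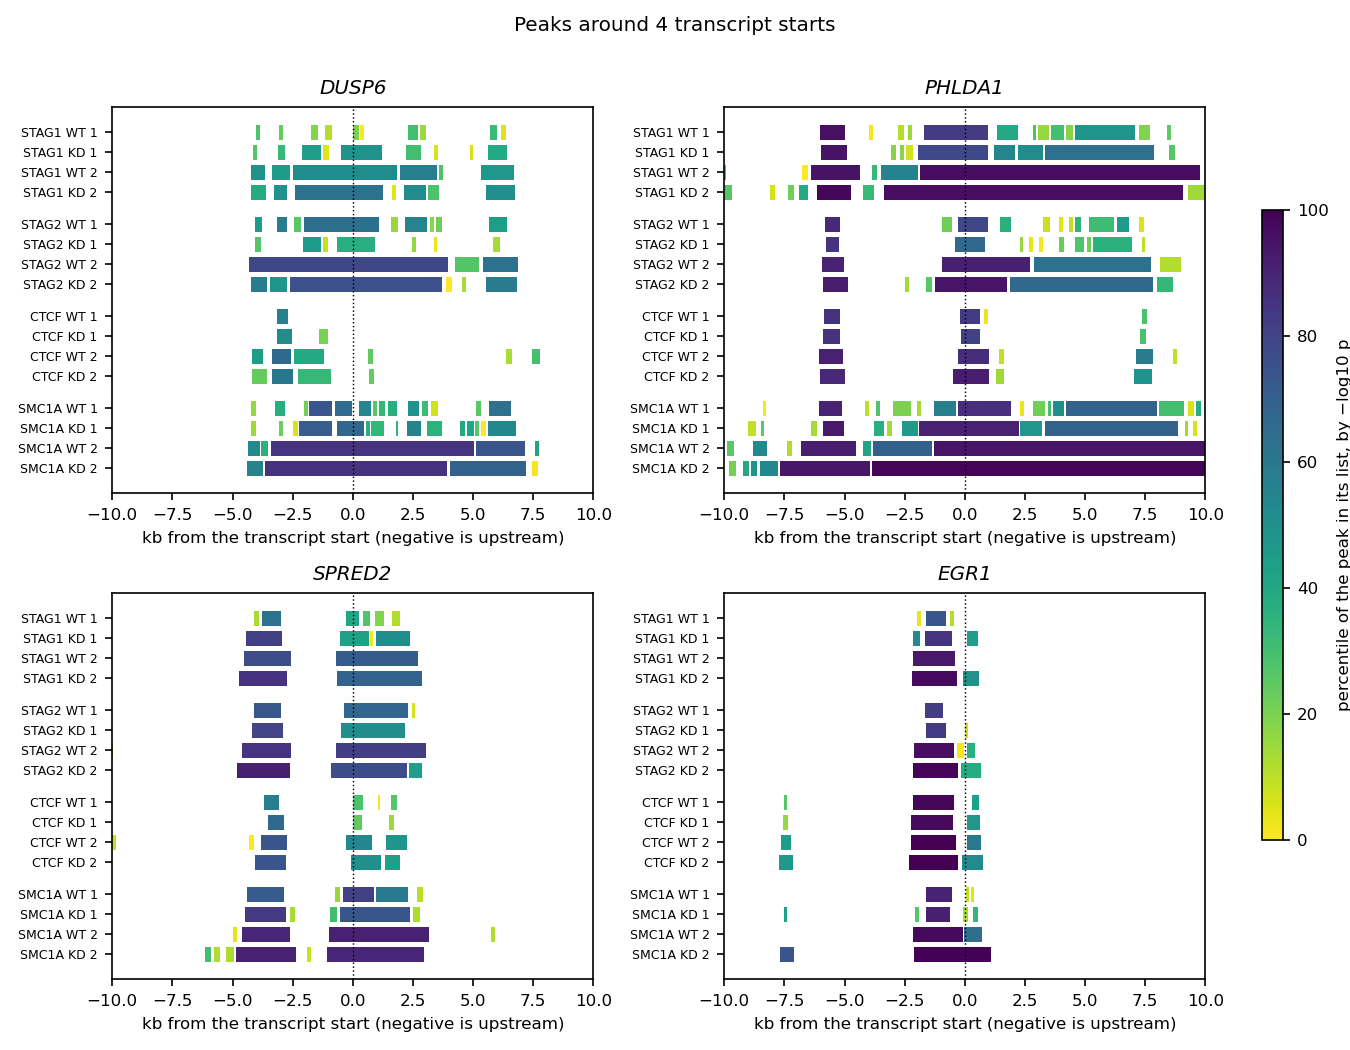
Peaks within 10 kb of the canonical start of DUSP6, PHLDA1, SPRED2 and EGR1 in the 16 lists (rows); bars span the peaks and their colour gives the percentile of the peak in its list by −log10 p. The x axis is the distance in kb, negative upstream. SMC1A covers most of the PHLDA1 panel in replicate 2, CTCF is sparse at DUSP6, the SPRED2 upstream site is present in every list, and the distal EGR1 site has SMC1A only in the 2 STAG2-KD lists.

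At SPRY2 CTCF reached percentiles of 99.6, 98.6, 98.2 and 98.1 at a site 1.89 kb upstream (chr13:80916479-80917812). SMC1A was at 97.8, 96.3, 98.7 and 97.7 there, STAG1 at 87.0, 85.4, 91.9 and 91.7, and STAG2 at 94.3, 87.6, 95.8 and 96.7. This is the site with the centred core motif printed above, and all 4 proteins ranked in the upper part of every list. SPRY4 lacked a site of that kind. Its strongest CTCF site was in an intron, 6.95 kb from the start, at 60.3, 54.9, 72.0 and 63.1. At the annotated start of SPRY4 STAG2 was at 64.6, 48.5, 78.2 and 76.6, SMC1A at 66.8, 62.2, 85.4 and 80.1, and CTCF at 1.73 in WT replicate 1, at 64.8 and 61.7 in replicate 2, with no peak in STAG2-KD replicate 1. At the canonical start of SPRY4 CTCF had a peak in every list, at 46.6, 50.9, 64.8 and 61.7, and STAG1 was at 33.1, 46.2, 61.4 and 64.9.

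At the start of SPRED1 all 4 proteins had a peak in all lists, with CTCF at 72.5, 67.0, 80.3 and 73.1 and SMC1A at 81.2, 80.0, 94.2 and 90.0. STAG2 was at 67.5, 51.5, 83.7 and 80.3. All 3 percentiles were lower in STAG2-KD in both replicates, while SMC1A fold was 18.8, 20.9, 19.8 and 19.5 and so rose in replicate 1. The strongest CTCF site of SPRED1 was in an exon, 102 kb from the start, at 86.6, 85.7, 86.7 and 85.0. At the start of SPRED2 STAG2 was at 67.4, 51.3, 82.1 and 76.7, CTCF at 28.4, 24.3, 54.3 and 50.2, and SMC1A at 80.9, 73.4, 90.7 and 89.4. These percentiles were lower in STAG2-KD in both replicates as well. At the site upstream of the gene described below, the percentiles of the same proteins were higher in both. SMC1A fold at the start of SPRED2 was 18.8, 10.6, 15.6 and 16.9, so it rose in replicate 2.

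The canonical start of ETV4 had SMC1A at 64.2, 58.1, 80.4 and 78.4, CTCF at 40.0, 37.3, 47.9 and 51.0 and STAG2 at 38.6, 0.853, 58.5 and 58.1. The strongest CTCF site of the gene bounds lay 30.4 kb upstream of that start, in an intron of a longer transcript (chr17:41653449-41654699), at 96.1, 91.3, 95.3 and 95.0. STAG1 was at 97.8, 97.7, 96.9 and 97.6 there, and STAG2 at 99.4, 98.7, 99.3 and 98.5, the highest STAG2 percentile among the 10 strongest CTCF sites in 3 of the 4 STAG2 lists. ETV5 had no CTCF peak within 1 kb of its annotated start and had CTCF at 21.7, 31.2, 48.2 and 40.8 at its canonical start. SMC1A at the canonical start was at 63.9, 62.1, 84.7 and 72.5.

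PHLDA1 had all 4 proteins at its start, with SMC1A at 86.5, 90.8, 94.8 and 98.8, CTCF at 83.4, 80.8, 87.0 and 92.3, STAG1 at 82.6, 78.4, 96.8 and 96.2 and STAG2 at 78.6, 66.5, 91.2 and 94.5. Its strongest CTCF site was 5.51 kb upstream, in an exon of a NAP1L1 transcript, at 85.2, 85.7, 90.8 and 88.9. Within 1 kb of the start of EGR1 the strongest CTCF peak, whose summit lies 1.2 kb upstream, was at 98.4, 97.4, 99.9 and 99.9 and SMC1A at 90.5, 91.3, 97.5 and 99.3. STAG1 was at 73.9, 84.6, 93.7 and 97.1 and STAG2 at 82.4, 83.5, 96.3 and 99.0. The EGR1 start was the only one of the 10 at which STAG2 had a higher percentile in STAG2-KD in both replicates. At the annotated starts STAG2 was lower in both replicates at 5 of the 9 genes with a peak in all 4 STAG2 lists and higher at 1. STAG1 was higher in both at 3 of 8 genes and lower at 1, CTCF lower at 4 of 6 and higher at 0, and SMC1A higher at 4 and lower at 4 of 10. At the canonical starts STAG2 was lower at 6 of 10 and higher at 1, STAG1 higher at 4 of 8 and lower at 1, CTCF lower at 4 of 9 and higher at 0, and SMC1A higher at 4 and lower at 5 of 10. A wide peak can set such a direction. At SPRY2 in STAG2-KD replicate 2, the SMC1A and STAG2 peaks at the start also covered the strongest CTCF site upstream. They were at 97.7 and 96.7, while WT had 83.1 and 81.1 at the start and 98.7 and 95.8 upstream. Among all protein-coding genes with a peak at the annotated start in all 4 lists, 44.5% had STAG2 lower in both replicates and 26.2% higher, 54.7% had STAG1 higher and 9.46% lower, 35.6% had CTCF lower and 28.5% higher, and 34.2% had SMC1A higher and 33.0% lower. The STAG1 and STAG2 directions at these starts were thus the common ones of the lists, and those percentiles move with the list lengths given above.

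The change from WT to STAG2-KD was then compared for each antibody. STAG1 peaks at the 10 genes numbered 71, 87, 77 and 88, which is higher in STAG2-KD in both replicates, and STAG2 peaks numbered 85, 63, 87 and 75, which is lower in both. CTCF had 48, 48, 68 and 64 peaks, and SMC1A is given above. As a log2 ratio of STAG2-KD to WT, the STAG1 number stood at 0.24 ± 0.071 and the STAG2 number at −0.32 ± 0.15 (SD, n = 2 replicates). The ratio was −0.04 ± 0.062 for CTCF, and SMC1A had 0.01 ± 0.075. Over all peaks of the lists the ratios were 0.26, −0.30, −0.02 and 0.09, so the numbers at the 10 genes moved as their lists did. The two-sided exact permutation test of 2 against 2 libraries gave p = 0.333 for STAG1 and STAG2, the smallest it allows, and p = 1 for CTCF and SMC1A. When every list was cut to its 58521 strongest peaks, the STAG1 ratio became −0.37 and the STAG2 ratio 0.34, so the direction of these peak numbers turned once the list lengths were made equal. The cut removes any change in the whole list by construction, so these ratios are relative to the lists.

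By presence or absence, 39 of 85 WT STAG2 peaks (45.9%) were lost in replicate 1 and 26 of 87 (29.9%) in replicate 2, where 32.2% and 22.1% of all STAG2 peaks were lost. For STAG1, 34 of 87 (39.1%) and 26 of 88 (29.5%) were gained, where the share over all peaks was 31.7% and 18.6%. These shares depended on the lengths of the lists. With equal lengths STAG2 lost 13.2% and gained 18.7%, and STAG1 lost 19.9% and gained 13.4% (means of 2 replicates), so that losses and gains changed places. The cut takes more weak peaks from the longer list, which was WT for STAG2 and STAG2-KD for STAG1. No share over all peaks is given for it, so list length and a change in binding cannot be told apart here. With the lists as deposited, STAG1 losses were 3 of 71 (4.23%, with 6.42% over all peaks) and 17 of 77 (22.1%, with 13.6%). STAG2 gains were 7 of 63 (11.1%, with 6.62%) and 9 of 75 (12.0%, with 12.0%). These peaks were weak, since the lost STAG2 peaks had a median percentile of 15.5 and 14.8, against 46.2 and 58.0 for those that stayed. CTCF lost 10.4% and 17.6% of its peaks (12.3% and 16.9% over all) and gained 10.4% and 6.25% (15.1% and 12.1%). SMC1A lost 19.4% and 18.9% (19.1% and 25.8%) and gained 31.1% and 27.3% (28.6% and 29.7%), close to its lists.

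Of the lost STAG2 peaks, 12 of 39 in replicate 1 (30.8%, with 20.4% over all lost peaks) and 3 of 26 in replicate 2 (11.5%, with 9.95%) were switch sites, with no STAG1 peak in WT and a STAG1 peak in STAG2-KD. In replicate 1 they lay at SPRY2 (3), SPRED2 (3), DUSP4 (2), DUSP6, SPRY4, SPRED1 and ETV4 (1 each), and in replicate 2 at DUSP4 (2) and ETV4 (1). ETV5, PHLDA1 and EGR1 had none. These 15 peaks fell to 0 when the lists were cut to equal length and to 3 at a −log10 q of at least 5.

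Few sites were lost or gained in both replicates. No STAG2 site among the 44 with a peak in both WT lists was lost in both, where 4.94% of all such sites were, and none of 33 was gained in both (0.728% of all). STAG1 gained 4 of 46 sites in both (8.70%, with 6.10% over all) and lost 0 of 32 (1.4% over all, 808 of 57759). The strongest covers the start of EGR1 (chr5:137801073-137801749), with STAG1 at 44.9 and 49.8 in STAG2-KD. CTCF was present there in all 4 lists (43.2, 46.9, 59.6 and 52.4). The other gained STAG1 sites were at an internal start of SPRED2 (chr2:65593708-65594068, at 1.69 and 31.6) and 2 sites downstream of DUSP4 (chr8:29186350-29186716 and chr8:29187969-29188145, at 7.89 to 31.9). CTCF lost 0 of 41 (3.08% over all) and gained 0 of 41 (1.91% over all).

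SMC1A gained 6 of 62 sites in both replicates (9.68%, with 5.57% over all) and lost 2 of 62 (3.23%, with 3.11% over all). The strongest gained site was the distal EGR1 site (chr5:137793492-137794078), at 43.5 and 74.1 in STAG2-KD. It was the only gained SMC1A site with CTCF, which was present in all 4 lists at 26.4, 15.8, 45.4 and 47.2, and it had no STAG1 or STAG2 peak in any list. The other 5 had no CTCF peak in any list and lay downstream of SPRY2 (chr13:80902571-80902829), ETV4 (chr17:41604702-41605039), ETV5 (chr3:185760979-185761218) and SPRY4 (chr5:141688702-141689154) and in an intron of SPRED2 (chr2:65648061-65648289), at percentiles from 2.55 to 49.0. The lost sites were in SPRED1 (chr15:38552273-38552471, at 0.826 and 41.3 in WT) and SPRY4 (chr5:141694407-141694741, at 2.01 and 35.3).

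The rank of peaks present in both conditions was compared next. STAG1 ranks were higher in STAG2-KD at all 10 genes in replicate 1, with a median shift over 44 sites of 9.12 percentile points, and the median over all such STAG1 sites was 8.79. In replicate 2 the median over 55 sites was 0.35, beside 1.57 over all sites, and 7 of 10 genes were higher. Lower STAG1 ranks were seen at 22.7% and 45.5% of the sites, beside 15.7% and 39.6% of all sites. STAG2 ranks were lower at 9 genes in replicate 1, with a median of −10.7 over 45 sites, and at 7 in replicate 2, with a median of −2.52 over 53 sites. Over all STAG2 sites the medians were −8.48 and −2.80. Since the STAG1 lists were longer and the STAG2 lists shorter in STAG2-KD, these shifts hold the change in list length and give no measure of binding. Fold enrichment, centred on the median of each list, gave another direction for STAG1. Centring removes any change shared by a whole list, so these differences are relative to the list. Medians before centring are not given. At the sites with a peak in all 4 lists, the median log2 difference of STAG2-KD from WT was −0.32 for STAG1 (18 of 28 sites lower) and −0.06 for STAG2 (18 of 28 lower), beside −0.07 and 0.05 over all sites. It was −0.29 for CTCF (28 of 37 lower) and −0.22 for SMC1A (25 of 40 lower), beside −0.07 and −0.06. No test was made on these medians.

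**Figure D4:**
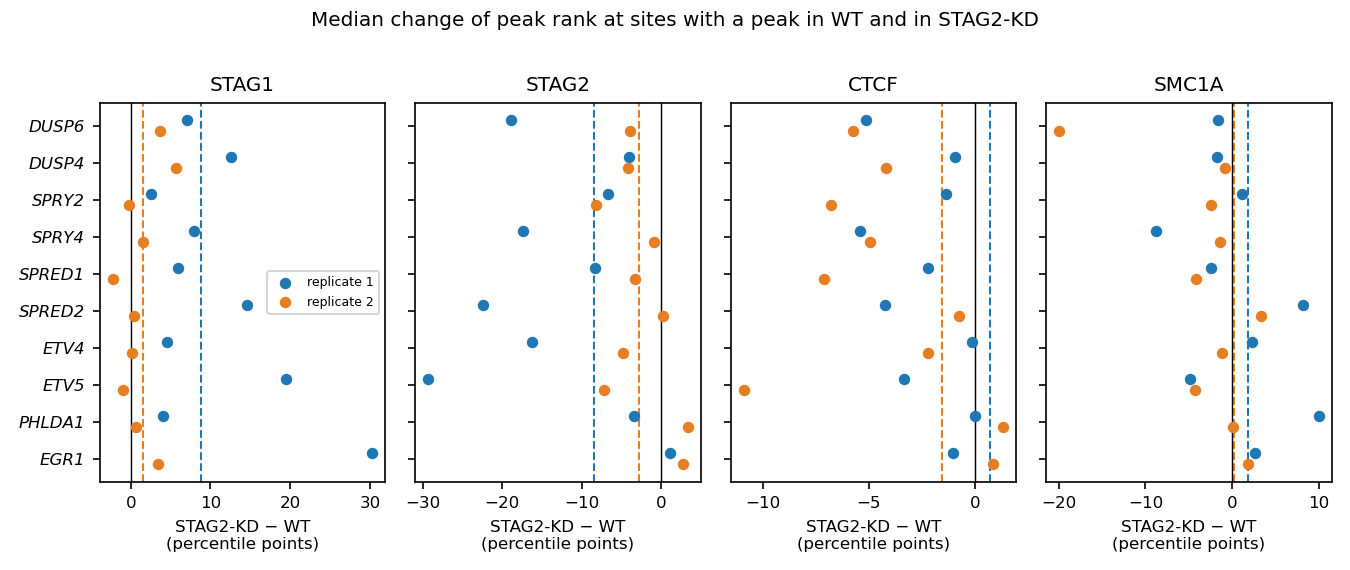
Median change in percentile from WT to STAG2-KD at sites with a peak in both, for each gene (rows), antibody (panels) and replicate (colours); dashed lines give the median over all sites of the lists. CTCF points lie at or below 0 for most genes in both replicates, and STAG1 and STAG2 points of replicate 1 lie to the right and to the left of 0, while in STAG2-KD the STAG1 list was longer and the STAG2 list shorter.

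CTCF ranks were lower at 25 of 41 sites in replicate 1 (61.0%) and at 40 of 55 in replicate 2 (72.7%), while over all CTCF sites 45.3% and 60.7% were lower. The median shift was −2.66 and −3.65 percentile points, and over all sites it was 0.70 and −1.57. By gene, the median CTCF shift was negative in both replicates at 8 of 10 genes, with PHLDA1 positive in both (0.02 and 1.34) and EGR1 at −1.02 and 0.87. ETV5 had −3.36 and −10.9, SPRY4 −5.42 and −4.97, and DUSP6 −5.15 at 1 site and −5.75 at 4 sites. SMC1A shifts had medians of 0.41 and −1.29, with 1.9 and 0.19 over all sites, and their sign differed between genes. SPRED2 was at 8.18 and 3.3 and ETV5 at −4.83 and −4.24. Sites share libraries and windows, so these shares and medians are descriptions with no test.

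Fold enrichment was tested with limma at the sites with a peak in all 4 lists of an antibody, with the p-values adjusted over all such sites of the genome and each list centred on its median. Without a term for the replicate, no site at the 10 genes passed an adjusted p of 0.05, among 28 STAG1, 28 STAG2, 37 CTCF and 40 SMC1A sites. In the same fit the shares called over all sites were 0.264% lower and 0.894% higher for STAG2, 0.330% lower and 0.221% higher for SMC1A, and 0 for STAG1 and CTCF. At an unadjusted p of 0.05, limma had 3 STAG1, 1 STAG2, 5 CTCF and 5 SMC1A sites lower and 1, 2, 1 and 1 higher at the 10 genes. Over all sites 4619 of 54425 STAG1, 2834 of 50019 STAG2, 5480 of 69531 CTCF and 6093 of 55721 SMC1A sites were lower. Higher were 2577, 4402, 3409 and 3758. The counts at the 10 genes are small and were not tested against these. Since the labels tie the replicate number to a shared preparation, the fit with the replicate as a block is given beside it. It called 4 sites higher and 6 lower at the 10 genes. For CTCF 3 of 37 sites were lower (8.11%, with 8.68% over all sites) and 1 higher (2.70%, with 4.78%). For SMC1A 2 of 40 were lower (5.00%, with 6.21%) and 1 higher (2.50%, with 4.38%). For STAG2 1 of 28 was lower (3.57%, with 4.80%) and 1 higher (3.57%, with 7.59%), and for STAG1 0 were lower (5.32% over all sites) and 1 of 28 higher (3.57%, with 2.90%). These shares were near or below those of the genome, so the calls describe single sites and are no result about the 10 genes. The block leaves 1 residual degree of freedom per site before moderation.

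All 4 sites called higher were the same place, a site upstream of SPRED2 near the start of another transcript, whose sequence is printed above. STAG1 fold there was 12.1, 40.4, 10.0 and 20.3 in WT replicate 1, STAG2-KD replicate 1, WT replicate 2 and STAG2-KD replicate 2 (chr2:65662300-65664459). The log2 difference after centring was 1.09 ± 0.26 (SE, limma adjusted p = 0.00211). STAG2 fold was 12.6, 26.5, 13.0 and 20.2 (difference 1.18 ± 0.24, limma adjusted p = 0.00067). The site was thus higher for both accessory subunits, STAG2 included, and in each replicate. CTCF fold was 12.9, 32.6, 16.5 and 23.7 (0.86 ± 0.22, limma adjusted p = 0.0158) and SMC1A fold was 9.18, 24.3, 12.3 and 20.4 (0.80 ± 0.24, limma adjusted p = 0.0385). The libraries of the 4 targets in a condition and replicate were set against input of the same condition, and whether the input at this site had a part in the shared difference was not tested. Of 37773 sites of the genome with peaks in all 16 lists, 319 (0.845%) were called higher for all 4 antibodies in the blocked fit and 469 (1.24%) lower.

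**Figure D5:**
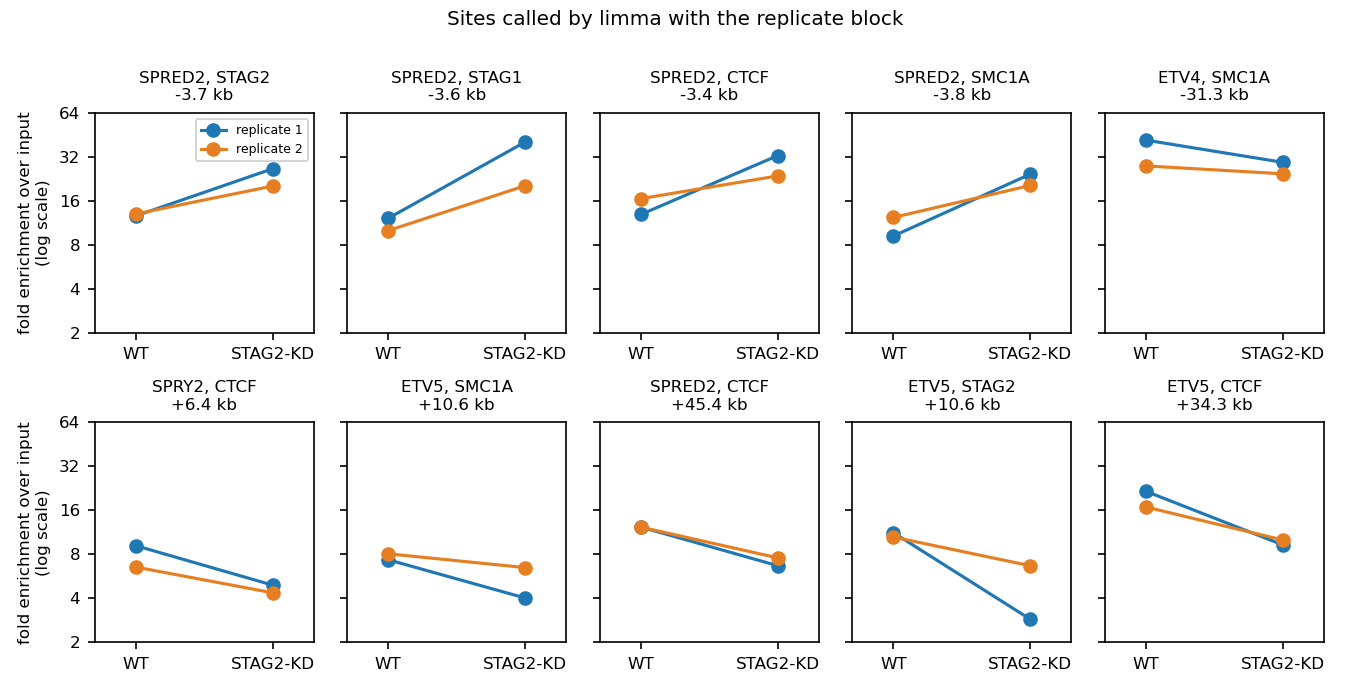
Fold enrichment over input (y axis, log scale) in WT and STAG2-KD for the 10 sites at the 10 genes called by limma with the replicate as a block; lines join the libraries of a replicate, and titles give the gene, the antibody and the distance from the canonical start in kb. The 4 SPRED2 panels at −3.4 to −3.8 kb go up in both replicates and the other 6 panels go down in both.

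The 6 sites called lower lay in 4 genes. In an intron of ETV5, 34.3 kb from the start, CTCF fold was 21.6, 9.29, 16.9 and 10.0 (−1.06 ± 0.23, limma adjusted p = 0.00675). This is the strongest CTCF site of ETV5. In another ETV5 intron, 10.6 kb from the start (chr3:185815057-185817477), STAG2 fold was 11.3, 2.88, 10.5 and 6.69 (−0.98 ± 0.28, limma adjusted p = 0.0138). SMC1A fold at this site was 7.35, 4.02, 8.07 and 6.49 (−0.86 ± 0.25, limma adjusted p = 0.0324).

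In an intron of SPRED2, 45.4 kb from the start (chr2:65613881-65614703), CTCF fold was 12.3, 6.69, 12.3 and 7.57 (−0.86 ± 0.23, limma adjusted p = 0.0205). Downstream of SPRY2 (chr13:80908618-80909202) it was 9.17, 4.93, 6.55 and 4.37 (−0.81 ± 0.25, limma adjusted p = 0.0337). At the site of ETV4 that holds its strongest CTCF peak (chr17:41652651-41657435), SMC1A fold was 41.6, 29.3, 27.7 and 24.5 (−0.61 ± 0.19, limma adjusted p = 0.049). DUSP6, DUSP4, SPRY4, SPRED1, PHLDA1 and EGR1 had no called site in this fit.

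Other ERK targets were examined as a list of 12 genes (DUSP5, SPRY1, SPRED3, ETV1, CCND1, EPHA2, EPHA4, FOS, FOSL1, IER2, IER3 and EGR3). Of these, 1 was dense in SMC1A in all 4 lists, beside 6 of the 10. The median density percentile was 97.2 for the 10 genes and 87.1 for the other targets. A CTCF peak overlapped 55.9%, 44.2%, 41.4% and 42.4% of SMC1A peaks at the other targets, above the share at the 10 genes in each list. STAG2 losses at the other targets were 27.9% and 10.5%, below the 45.9% and 29.9% at the 10 genes. These differences between lists were not tested.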

How the data were processed

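ChIP-seq peak lists of STAG1, STAG2, CTCF and SMC1A in M14 WT and STAG2-KD cells were analysed, 1 list per library. The methods name bowtie2 for alignment, to hg19, and MACS2 for peak calling, with input as control. The submitters' processing notes name BWA in place of Bowtie2 for replicate 2. The lists that the authors deposited give a score, a fold enrichment (a ratio over input), a −log10 p-value and a −log10 q-value per peak. Lists of replicate 1 were limited by q-value and those of replicate 2 by p-value, so peak numbers and widths were compared within a replicate. The input libraries had no list and were not analysed here.

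Rows outside chromosomes 1 to 22, X and Y (0.137% to 4.60% of a list) were dropped. Gene bounds, exons and transcript starts are those of GENCODE v44 lifted to GRCh37, which is hg19. Peaks overlapped when they shared at least 1 bp. A peak was lost or gained when it had no partner of the same antibody and replicate in the other condition. Promoter peaks lay within 1 kb of a start. Sites with a peak in all 4 lists of an antibody were tested with limma 3.58.1 (R 4.3.3, trended eBayes, Benjamini-Hochberg adjustment over all sites) on the log2 fold enrichment, centred per list by its median. The replicate number pairs the libraries because the labels give each set its own extraction and size selection, and the deviations of same-numbered libraries from their group means correlated with r = 0.38 to 0.65 over sites. Read depth was solved from fold and p under a MACS2 background with a genome of 2.7 Gb and covers counting only. Alternatives were other thresholds, equal list lengths, other windows, a minimum overlap of 50% of the shorter interval, each replicate left out and the replicate block. The overlap functions and the limma fit were tested on simulated data.

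The 10 genes and the list of other ERK targets were chosen with earlier results of these data known, and the motifs (the CTCF core and AP-1), the canonical starts, the covered-length measure and the set of stronger SMC1A peaks were chosen after seeing the data. The sites named are the promoter sites, the strongest CTCF site of each gene, all sites lost or gained in both replicates and all limma calls. A further list of genes and 1 site sequence are not reported here.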

Additional observations from a re-analysis of the deposited data

Results flagged for a closer look

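At 4 genes the median rank of STAG1 peaks was higher in STAG2-KD and that of STAG2 peaks lower, in both replicates. At DUSP6 the STAG1 shift was 7.01 and 3.72 percentile points in replicates 1 and 2, and the STAG2 shift was −18.8 and −3.90. At DUSP4 the STAG1 shift was 12.5 and 5.73 and the STAG2 shift −4.06 and −4.20. At SPRY4 the STAG1 shift was 7.96 and 1.48 and the STAG2 shift −17.3 and −0.93. At ETV4 the STAG1 shift was 4.53 and 0.20 and the STAG2 shift −16.2 and −4.80. The difference between the antibodies was not tested. The medians over all sites of the lists had the same signs (8.79 and 1.57 for STAG1, −8.48 and −2.80 for STAG2). The STAG1 lists grew from 63535 to 85621 peaks and from 98453 to 104663 in STAG2-KD. The STAG2 lists shrank from 79115 to 58521 and from 119021 to 106203. A peak of the same strength takes a higher percentile in a longer list, so list length and a change in binding cannot be told apart in these shifts. By fold enrichment centred on the median of each list, the STAG1 pattern was not seen at most sites with a peak in all 4 lists. This centring removes any change shared by a whole list. STAG1 was lower in STAG2-KD at 4 of 5 sites of DUSP6, 1 of 2 of DUSP4, 2 of 2 of SPRY4 and 1 of 2 of ETV4. STAG2 was lower at 2 of 2, 2 of 2, 2 of 3 and 3 of 4 sites. Before centring, STAG1 fold rose in both replicates at the starts of DUSP6 (4.29, 8.05, 3.67 and 5.92) and DUSP4 (10.1, 19.0, 12.3 and 16.3). It did not rise in both at the annotated starts of SPRY4 and ETV4. No site of these 4 genes was called for STAG1 or STAG2 by limma, with or without the replicate as a block.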

How the results depend on the processing

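Of 259 alternative values, 188 kept their direction and side of the threshold or stayed within the replicate spread, 51 moved, 14 newly passed a threshold and 6 turned. With the lists cut to equal length, the peak number ratio (log2) turned to −0.37 for STAG1, 0.34 for STAG2 and −0.24 for SMC1A. STAG1 then gained 13.4% of peaks, lost 3 sites and gained 1 in both replicates. STAG2 lost 13.2% and gained 18.7%, with 3 sites gained in both. CTCF lost 7.28%, and SMC1A lost 21.3% and gained 19.0%, with 3 sites gained in both. SMC1A peaks with CTCF were 38.2% in WT and 42.8% in STAG2-KD, and switch sites numbered 0. At a −log10 q of at least 5, STAG1 gained 24.1% (2 sites in both), STAG2 lost 24.8% (2 sites in both) and gained 9.09%, CTCF lost 2 sites in both, and SMC1A lost 13.0% (0 sites in both) and gained 25.3%. CTCF then overlapped 42.0% of WT and 37.1% of STAG2-KD SMC1A peaks, beside 76.9% and 73.4% of all such peaks. Of 15 switch sites 3 were left. At a common −log10 q of 2, STAG2 gained 9.23% and lost 1 site in both, SMC1A lost 18.6%, and 30.9% of WT SMC1A peaks had CTCF.

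Within the gene bounds alone, the peak number ratio turned to 0.038 for CTCF and −0.11 for SMC1A, STAG1 gained 2 sites in both replicates, SMC1A lost 22.3% and gained 25.6% with 1 site gained in both, and CTCF overlapped 31.5% and 28.6% of SMC1A peaks in WT and STAG2-KD. With 25 kb around the genes, STAG1 lost 1 site in both, CTCF lost 1 and gained 1 in both and gained 12.6% of peaks, SMC1A lost 21.4%, and 27.2% of STAG2-KD SMC1A peaks had CTCF. With an overlap of 50% of the shorter interval, STAG2 gained 13.0%, and SMC1A lost 29.8% (4 sites in both) and gained 39.8% (11 sites in both). Among SMC1A peaks above the median of their list, CTCF overlap was 56.8% in WT and 55.2% in STAG2-KD, beside 86.0% and 85.4% of all such peaks. By covered length it was 59.8% and 60.1%, beside 76.2% and 75.4% over the genome. These 2 alternatives were chosen after seeing the data. The other shares and counts at changed thresholds, list lengths, windows and overlaps have no value over all peaks beside them. A change at the 10 genes cannot be told there from one of the whole lists. The causes were not tested.

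Pairing the libraries by replicate, as a block, gave 1 STAG1 site higher, 1 STAG2 site lower and 1 higher, 3 CTCF sites lower and 1 higher, and 2 SMC1A sites lower and 1 higher, against 0 without it. The block changed no other call, and the sign-flip permutation test of peak numbers with paired libraries gave p = 0.5 for STAG1 and STAG2, its smallest, and p = 1 for CTCF and SMC1A. With 1 library left out, limma called 0 to 1 site higher for each of the 4 targets and 0 to 1 lower for STAG2, CTCF and SMC1A. The lone library of a group was then assumed to vary like the others. The calls came without WT replicate 2 (STAG1 and SMC1A 1 higher, CTCF 1 lower and 1 higher) and without STAG2-KD replicate 2 (STAG2 1 lower and 1 higher, SMC1A 1 lower). With a replicate left out, the SMC1A peak number ratio was −0.041 to 0.066, and switch sites numbered 3 to 12, with 3 without replicate 1.

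Depth limits weak peaks most, and the counting error of each list was not propagated. The lists were limited by different thresholds in the replicates, so levels were compared within a replicate. The 2 replicates and 1 hairpin in 1 cell line limit every comparison.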
